A study of Mus musculus with 47 samples.

Results

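The genes described here encode liver-secreted plasma proteins: clotting and complement factors, acute phase proteins, serpins, apolipoproteins and carriers that hepatocytes release into the blood. The members were chosen by name, 35 in all, and a member was measured where a probeset of the deposited table had that single gene symbol. This held for 32 of the 35, each with 1 probeset, out of 6889 genes with a single symbol. Carboxypeptidase B2 (Cpb2), which slows clot breakdown, and the serpins Serpina3k and Serpina3m were not analysed here. Liver RNA came from 47 female hairless SKH:QS mice that entered the study at 8 weeks of age and received 30 weekly treatments over 36 weeks. The groups were Organic + UVR and Organic-UVR (sunscreen with organic filters only), TiO2 + UVR and TiO2-UVR (TiO2 nanoparticles together with organic filters), ZnO + UVR and ZnO-UVR (ZnO nanoparticles), Control + UVR (no sunscreen) and Control-UVR (neither). UVR was 29 kJ/m2 at each treatment. There were 6 mice in each group and 5 in ZnO + UVR, with 1 Affymetrix Mouse Gene 1.0 ST array per mouse. By the study's methods each group shared a cage, so cage and treatment cannot be told apart, whereas the sample labels give individual housing.

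Hepatocytes make most proteins of the blood plasma. Clotting factors circulate as inactive precursors that cleave one another in a cascade, and serpins, which trap proteases, hold the cascade in check. Complement tags microbes and builds a pore in their membranes, and mannose-binding lectin starts it by binding sugars. Acute phase genes respond to interleukin-6 after injury or infection, and in the mouse the pentraxin Apcs, not Crp, is the classical responder among pentraxins.

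One array stood apart from the others. Organic-UVR replicate 1 had a slope of 0.77 when its values were regressed on the mean of all arrays, whereas the other 46 arrays had slopes of at least 0.895, so its bright transcripts read low and its dim ones high. It was the lowest of its group for 27 of 32 members. TiO2-UVR replicate 1 was lowest of its group for 26 of 32 and Organic + UVR replicate 4 for 20 of 32. Some results that include Organic-UVR replicate 1 are given with and without it. Others are given only with it, among them the Organic-UVR differences of Apcs, Vtn, Clu, C4bp and the marker and list genes. Of 10 hepatocyte markers, Cps1 and Hal were measured, and their mean log2 level lay between 10.82 and 11.80 on all arrays. Hal, which breaks down histidine, was lower in Organic-UVR (-0.72, limma adjusted p = 0.0126), in TiO2 + UVR (-0.75, 0.012) and in the 4 groups with organic filters pooled against the other 4 (-0.46, 0.000296). Cps1, the entry enzyme of the urea cycle, differed by -0.03, -0.04 and -0.03 in those comparisons and was not called. Among markers of other cells, the endothelial gene Pecam1 was lower in Organic + UVR (-0.66, limma adjusted p = 0.072) and in the pooled contrast (-0.28, 0.0831), and the other 3 endothelial genes measured were not called. The bile duct gene Krt7 was higher in Organic-UVR (0.57, limma adjusted p = 0.00641) and Organic + UVR (0.37, 0.095), while Krt19 (0.14 and -0.10) and Sox9 (-0.27 and -0.23) were not called in either. In the pooled contrast Sox9 was lower (-0.24, 0.0834), Krt7 had 0.16 and Krt19 0.08, both not called. No marker of Kupffer cells, stellate cells, lymphocytes, neutrophils or adipocytes was called. The part of these shifts in the results for secreted proteins was not tested. In whole liver, fewer hepatocytes and less RNA per hepatocyte cannot be told apart.

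Most of the secreted protein genes gave bright signals. Of the 32 members, 28 were above the median transcript of the array on all 47 arrays, and the medians of the arrays lay between 5.12 and 5.45 on the log2 scale. The complement gene C6 was above the median on 43 arrays. C7, Serpina12 and Shbg were below it on every array. Serpina12 encodes vaspin, known as an adipokine, and Shbg encodes sex hormone-binding globulin; their log2 values ran from 3.26 to 5.02 and from 3.75 to 5.04.

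Each treated group was compared with Control-UVR in 1 limma fit over 9815 transcripts, with Benjamini-Hochberg adjustment over all of them and calls at an adjusted p under 0.1. No member was called in any of the 7 comparisons. The share of all transcripts called was 1.65% for Organic + UVR, 3.27% for Organic-UVR, 0.693% for TiO2 + UVR, 0.0% for TiO2-UVR and both ZnO groups, and 0.0509% for Control + UVR. Of the 1248 transcripts with a mean above 8, 2.08% were called for Organic + UVR, 6.33% for Organic-UVR and 1.52% for TiO2 + UVR. With shares this low, a set of 32 genes would hold few calls or none, so a count of 0 does not set these genes apart. At an unadjusted p under 0.05, Mbl1 and Itih1 were lower in Organic + UVR and in Organic-UVR, and Mbl1 was lower in TiO2 + UVR. F5 and Serpina6 were lower in Control + UVR at the same unadjusted limit. No member reached it in TiO2-UVR, ZnO + UVR or ZnO-UVR. Of all transcripts, the share under that unadjusted limit was 17.1% for Organic + UVR, 19.1% for Organic-UVR and 10.2% for TiO2 + UVR. It was 3.86% for TiO2-UVR, 2.81% for ZnO + UVR, 1.52% for ZnO-UVR and 12.8% for Control + UVR. Of transcripts with a mean above 8 it was 20.1% for Organic + UVR and 32% for Organic-UVR. In TiO2-UVR and both ZnO groups their share was lower than that of all transcripts. Of the members, 2 of 32 (6.25%) were under the limit where most were found.

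The differences were small and the intervals show how small. For 21 of 32 members, all 7 differences from Control-UVR lay within 0.2 on the log2 scale. For 21 members every 95% interval stayed within 0.5 of 0, and for 7 members within 0.3. The closest were Apoa2, whose intervals reached no further than 0.23, Apob with 0.24 and the antithrombin gene Serpinc1 with 0.24. The widest interval belonged to Apcs and reached 1.01, so for that gene differences of up to that size were not excluded.

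**Figure D1:**
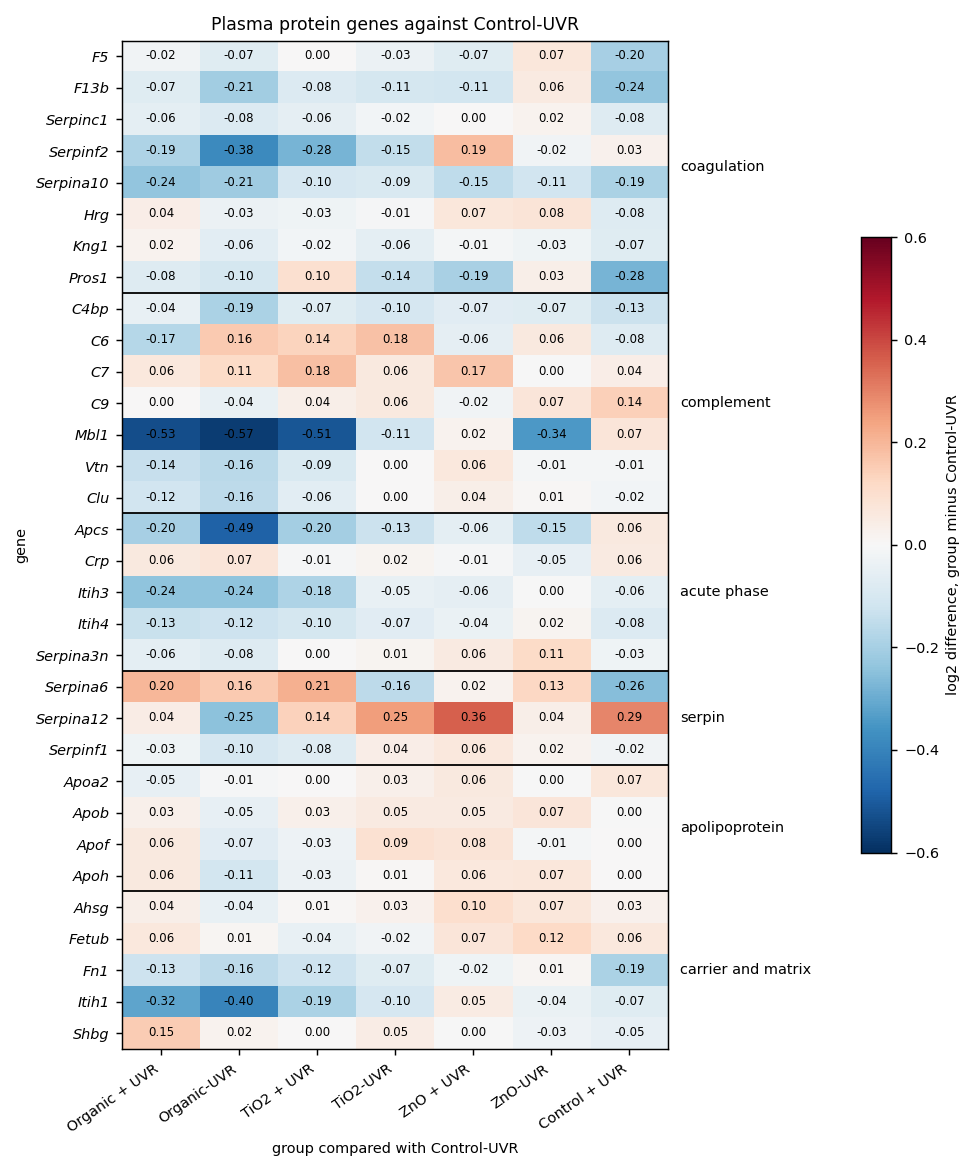
Log2 difference of each of the 32 measured genes (rows, by class) in 7 groups (columns) from Control-UVR; blue is lower and red is higher than Control-UVR, and the number in each cell is the difference. The darkest blue cells are Mbl1 in Organic + UVR (-0.53), Organic-UVR (-0.57) and TiO2 + UVR (-0.51), and no cell passed the test.

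The median difference of the members from Control-UVR was -0.05 in Organic + UVR, -0.09 in Organic-UVR, -0.03 in TiO2 + UVR, -0.01 in TiO2-UVR, 0.02 and 0.01 in the ZnO groups with and without UVR, and -0.02 in Control + UVR. The medians of all transcripts were at most 0.03 in size. In Organic-UVR, 26 of 32 members lay below 0, and without replicate 1 of that group 14 did, with a median of 0.01. With the slope of each array as a covariate the medians were above 0: 0.07 in Organic + UVR (6 of 32 below 0), 0.04 in Organic-UVR (10 of 32), 0.04 in TiO2 + UVR (10 of 32), 0.04 in TiO2-UVR (7 of 32) and 0.07 in Control + UVR (9 of 32). Bright transcripts as a whole were also lower in the fit without the slope. The 1248 transcripts with a mean above 8 had a median difference of -0.22 in Organic-UVR, and 85.9% of them lay below 0. In TiO2-UVR 77.5% of them lay below 0, against 17 of 32 members. In ZnO + UVR it was 58.3%, against 14 of 32 members. These 7 comparisons share the Control-UVR arrays.

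The TiO2 and organic products both hold organic filters, and a pooled contrast set their 4 groups (24 mice) against the ZnO and Control groups (23 mice). Here 2 of 32 members were called, both lower: Mbl1 and Itih1. Of all transcripts, 4.94% were called, with 3.4% lower and 1.54% higher. Of transcripts with a mean above 8, 10% were called, so 2 of 32 does not stand above the background. The 485 calls split into 151 higher and 334 lower, and with the slope of each array as a covariate into 110 higher and 106 lower. At an unadjusted p under 0.05 there were 5 members of 32 (15.6%), against 19.6% of all transcripts and 27.5% of those with a mean above 8. Those 5 were Mbl1, Itih1, Serpinf2 and Itih3, all lower, and Serpina6, higher. The members' median was -0.04 with 25 of 32 below 0, while transcripts with a mean above 8 had a median of -0.09 with 79.9% below 0. With the slope of each array as a covariate, 9 of 32 members lay below 0 and their median was 0.02.

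**Figure D2:**
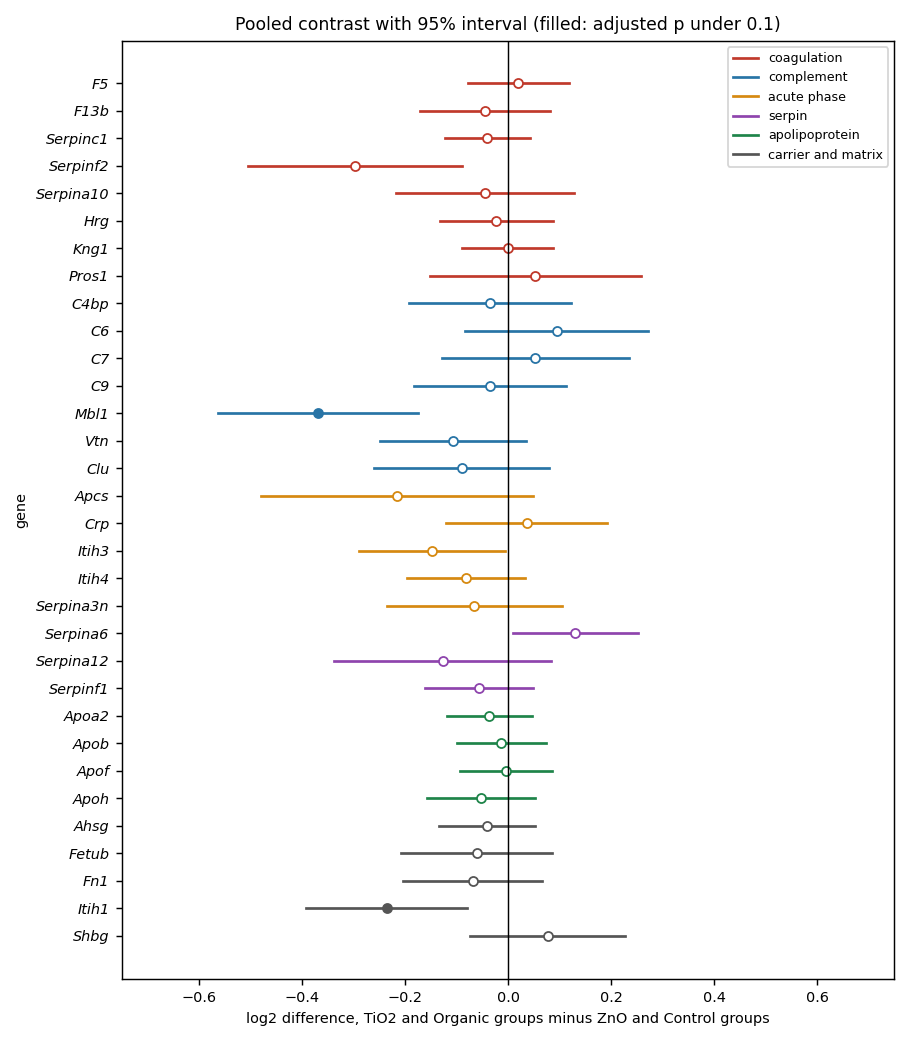
Log2 difference (x axis) of each gene (y axis) in the 4 TiO2 and Organic groups (24 mice) minus the ZnO and Control groups (23 mice), with 95% intervals; colours mark the class and filled points an adjusted p under 0.1. Mbl1 (-0.37) and Itih1 (-0.24) are the filled points.

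Mbl1 encodes mannose-binding lectin A, a mouse opener of the lectin pathway of complement. The lowest, median and highest log2 values were 7.16, 7.95 and 8.46 in Organic + UVR, 6.34, 7.88 and 8.87 in Organic-UVR, and 7.46, 7.84 and 8.50 in TiO2 + UVR. They were 7.74, 8.25 and 8.88 in TiO2-UVR and 7.40, 8.10 and 8.76 in ZnO-UVR, and the 5 mice of ZnO + UVR had 8.56, 8.04, 7.68, 8.78 and 8.90. In Control + UVR they were 8.15, 8.55 and 8.80, and in Control-UVR 8.17, 8.30 and 8.93. All groups overlap, and the mice under 7.40 were 1 of Organic-UVR and 1 of Organic + UVR. The mean of the group means was 7.98 with organic filters and 8.34 without (SD over mice 0.56, n = 24, and 0.44, n = 23). The difference was -0.37 (SE 0.096, 95% interval -0.56 to -0.18, limma adjusted p = 0.0302). Against Control-UVR, the difference was -0.53 in Organic + UVR (adjusted p = 0.156), -0.57 in Organic-UVR (0.111) and -0.51 in TiO2 + UVR (0.327), all from limma and none called. With array weights Mbl1 was called in each of them (limma adjusted p = 0.027, 0.049 and 0.042). Brighter transcripts alone gave a call in Organic-UVR (0.0701). None was called without the replicate block, with quantile normalization, with the array slope as a covariate or with the compared groups alone. Without Organic-UVR replicate 1, Mbl1 was called in Organic + UVR (-0.53, limma adjusted p = 0.0544), and the difference in Organic-UVR was -0.31 (limma adjusted p = 0.556). TiO2-UVR differed by -0.11 and ZnO-UVR by -0.34, neither called. The interaction of TiO2 sunscreen and UVR was -0.47 with a limma adjusted p of 0.646.

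The level of Mbl1 also differed between replicate numbers, which the labels carry across groups and which entered the fit as a block. Mice numbered 1, 2 and 3 averaged 7.78, 7.86 and 7.83 over all groups, and those numbered 4, 5 and 6 averaged 8.67, 8.49 and 8.31. The span of these averages exceeds the pooled difference. Within each number the groups with organic filters were lower than the others, in 6 of 6 numbers, by 0.11 to 0.67. Without the block the difference was -0.36 and the adjusted p from limma was 0.209, and with the array slope as a covariate it was -0.21 (limma adjusted p = 0.123), so the call was lost in both fits. Without Organic-UVR replicate 1 it was -0.30 with a limma adjusted p of 0.0297, and no single array left out ended the call.

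Itih1 encodes heavy chain 1 of inter-alpha-trypsin inhibitor, a plasma protein whose heavy chains are transferred to hyaluronan. The lowest, median and highest values were 10.39, 10.82 and 11.19 in Organic + UVR, 9.66, 10.91 and 11.08 in Organic-UVR, 10.76, 10.88 and 11.14 in TiO2 + UVR, and 10.52, 11.02 and 11.30 in TiO2-UVR. The 5 mice of ZnO + UVR had 11.06, 11.23, 11.30, 11.13 and 10.94, and ZnO-UVR had 10.90, 11.02 and 11.26. Control + UVR ran between 10.80 and 11.25 with a mean of 11.02, and Control-UVR between 10.85 and 11.33 with a mean of 11.10. The group medians spanned 0.30, and 8 of the 24 mice with organic filters, from all 4 of their groups, lay below 10.80, the lowest of the other 23. The lowest of all was Organic-UVR replicate 1. The pooled means were 10.84 with organic filters and 11.08 without, a difference of -0.24 (SE 0.078, 95% interval -0.39 to -0.08, limma adjusted p = 0.092). Without Organic-UVR replicate 1 the difference was -0.18 and the limma adjusted p 0.122. Against Control-UVR it was -0.32 in Organic + UVR (limma adjusted p = 0.281) and -0.40 in Organic-UVR (0.156), and in Organic-UVR without that replicate -0.20 (0.705). The call was lost in 28 of the 47 fits that left out 1 array each, with adjusted p-values of 0.0438 to 0.152. It was also lost without the replicate block (-0.23, limma adjusted p = 0.141), with array weights (-0.15, 0.107) and with the array slope as a covariate (-0.11, 0.42). It was lower with organic filters in 5 of 6 replicate numbers.

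The 250 bases before the start sites of Mbl1 and Itih1 are shown because these are the members called in the pooled contrast. They come from RefSeq on GRCm38.p6, chr14:41151206-41151455 on the plus strand for Mbl1 and chr14:30943290-30943539 on the minus strand for Itih1, and capitals mark matches to the motifs named after them.
Mbl1: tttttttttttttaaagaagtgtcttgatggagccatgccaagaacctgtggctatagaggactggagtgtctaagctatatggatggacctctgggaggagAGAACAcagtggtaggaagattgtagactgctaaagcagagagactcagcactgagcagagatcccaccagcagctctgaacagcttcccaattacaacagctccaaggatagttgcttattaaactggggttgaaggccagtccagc
Itih1: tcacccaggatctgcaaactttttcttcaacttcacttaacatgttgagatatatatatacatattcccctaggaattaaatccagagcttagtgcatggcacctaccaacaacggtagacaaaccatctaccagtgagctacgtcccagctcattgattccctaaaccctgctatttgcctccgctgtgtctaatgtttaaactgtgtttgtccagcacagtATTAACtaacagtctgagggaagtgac
On both strands 8 short motifs were searched: the E-box CACGTG, the D-box TTATGTAA, TTGCNNAA for C/EBP factors, TTCNNNGAA for STAT factors, GTTAAT (a repeat unit of HNF1 sites), TGTTTAC for FOXA factors, AGGTCA (a repeat unit of nuclear receptor sites) and TGTTCT (a repeat unit of glucocorticoid receptor sites). Mbl1 held a single match, to TGTTCT, at positions -148 to -143 from the start site. Itih1 held a single match, to GTTAAT, at positions -27 to -22. TGTTCT was in 16.2% of 27025 mouse promoters of that length and in 10 of the 26 members with an entry, and GTTAAT was in 6.52% of all and in 5 of 26. Matches to short letters are a description of sequence and do not show that a factor binds.

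Itih1 lies next to Itih3 and Itih4 in the RefSeq gene order, with no other protein-coding gene between them. Itih3 encodes a further heavy chain and Itih4 a related protein of the acute phase. The lowest, median and highest values of Itih3 were 11.09, 11.91 and 12.55 in the 24 mice with organic filters. In the other 23 mice they were 11.74, 11.99 and 12.44, a range within that of the 24. Every group with organic filters held a mouse below 11.74. The lowest were 11.48 in Organic + UVR, 11.09 in Organic-UVR, 11.62 in TiO2 + UVR and 11.50 in TiO2-UVR. The pooled difference was -0.15 (limma adjusted p = 0.233). Itih4 had a pooled difference of -0.08 and was not called. Other members form such neighbourhoods too: Crp with Apcs, Serpinf1 with Serpinf2, Serpina10 with Serpina6, and Ahsg, Fetub and Hrg in a row.

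Serpina6 encodes corticosteroid-binding globulin, the carrier of corticosterone in blood. It was the single member called in the moderated F test for any difference among the 8 groups (limma F 4.17, adjusted p = 0.0827), for which 1.93% of all transcripts were called and 11.4% were under an unadjusted p of 0.05. Mbl1 had a limma adjusted p of 0.102 in that test, and of 0.0293 without Organic-UVR replicate 1. The lowest, median and highest values were 12.25, 12.56 and 12.99 in Organic + UVR, 12.19, 12.57 and 12.81 in Organic-UVR, 12.34, 12.61 and 12.81 in TiO2 + UVR, and 12.12, 12.20 and 12.36 in TiO2-UVR. The 5 mice of ZnO + UVR had 12.25, 12.40, 12.53, 12.32 and 12.50, and ZnO-UVR had 12.28, 12.49 and 12.70. Control + UVR had 11.81, 12.19 and 12.39 and Control-UVR had 12.14, 12.39 and 12.55. Control + UVR and TiO2-UVR held the low values, and TiO2 + UVR overlapped TiO2-UVR only at the edge.

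The UVR differences of Serpina6 under TiO2 sunscreen and without sunscreen ran in opposite directions. Under ZnO sunscreen the means were 12.40 with UVR and 12.51 without, and under organic sunscreen 12.58 and 12.54. TiO2 + UVR was above TiO2-UVR in 6 of 6 replicate numbers, and Control + UVR was below Control-UVR in 5 of 6. The interaction was 0.62 (SE 0.167, 95% interval 0.29 to 0.96) with a limma adjusted p of 0.136, so it was not called; 0.173% of transcripts were called in this interaction and 0.0% in those of ZnO and organic sunscreen. Under an unadjusted p of 0.05 were 8.49%, 3.79% and 7.43% of transcripts in the interactions of TiO2, ZnO and organic sunscreen, and of the members Serpina6 in the first, none in the second and F13b in the third (0.37, limma adjusted p = 0.659). The TiO2 interaction of Serpina6 was called when only the brighter transcripts were tested (limma adjusted p = 0.0724), with array weights (0.0818) and without Organic-UVR replicate 1 (0.0773). With the array slope as a covariate this interaction also had 1 member called. For Serpina6, Control + UVR differed from Control-UVR by -0.26 (limma adjusted p = 0.34). In the pooled contrast Serpina6 was 0.13 higher with organic filters (means 12.48 and 12.35, limma adjusted p = 0.221), in 6 of 6 replicate numbers. The F call was lost in 28 of the 47 fits without 1 array, with adjusted p-values of 0.0399 to 0.21.

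**Figure D3:**
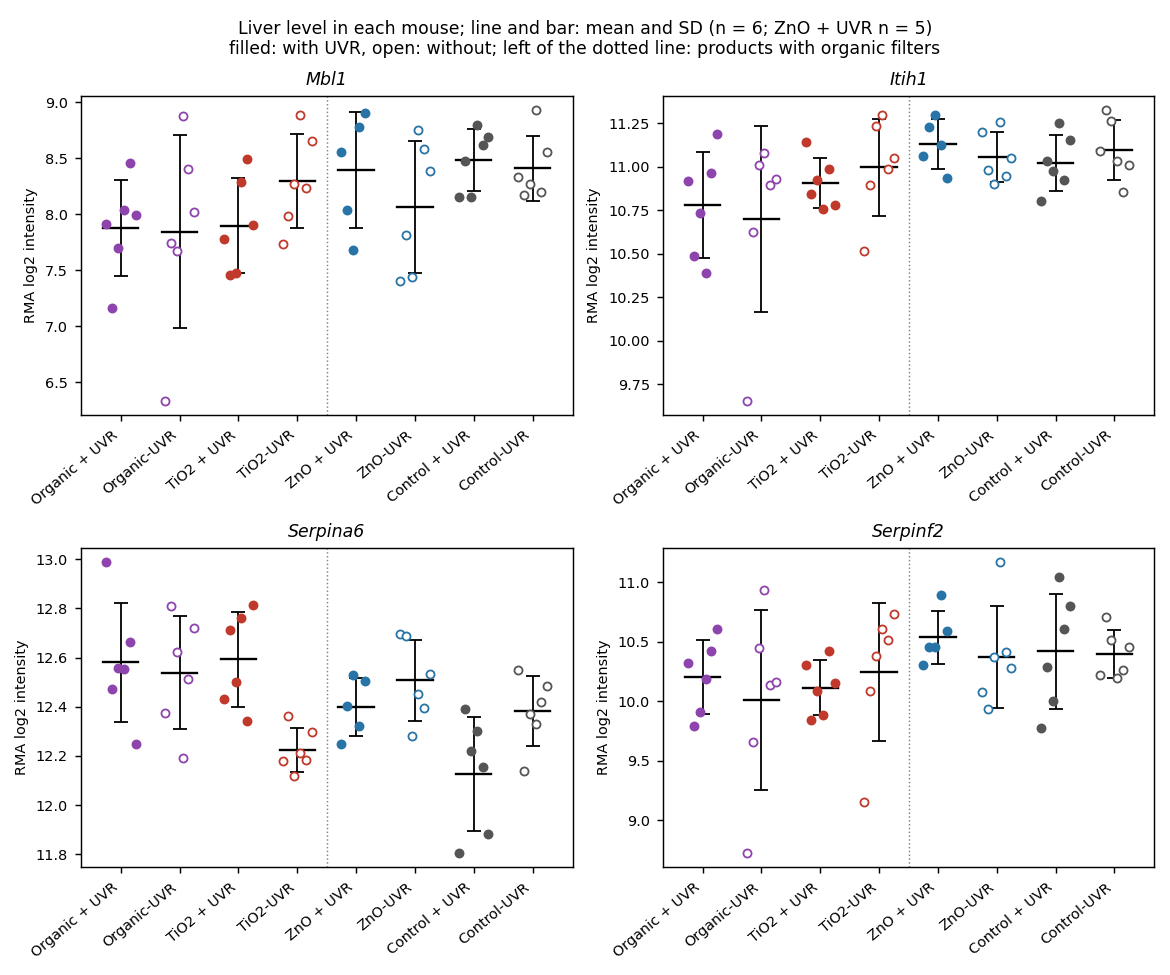
RMA log2 intensity (y axis) of Mbl1, Itih1, Serpina6 and Serpinf2 in each mouse by group (x axis); points run from replicate number 1 on the left to 6 on the right, filled with UVR and open without, and lines and bars give the mean and SD (n = 6, ZnO + UVR n = 5). Organic-UVR replicate 1 is the lowest mouse for Mbl1 (6.34), Itih1 (9.66) and Serpinf2 (8.73).

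Among the 8 coagulation genes no member was called in any comparison. Serpinf2 encodes alpha-2-antiplasmin, the main inhibitor of the clot-dissolving protease plasmin. Its lowest, median and highest values were 9.79, 10.25 and 10.61 in Organic + UVR, 8.73, 10.15 and 10.93 in Organic-UVR, 9.84, 10.12 and 10.43 in TiO2 + UVR, and 9.15, 10.45 and 10.73 in TiO2-UVR. ZnO + UVR had 10.30, 10.46, 10.45, 10.90 and 10.59, ZnO-UVR had 9.93, 10.33 and 11.17, Control + UVR had 9.77, 10.45 and 11.05, and Control-UVR had 10.20, 10.36 and 10.71. The lowest 2 mice were replicate 1 of Organic-UVR and of TiO2-UVR. The pooled difference was -0.30 (means 10.15 with organic filters and 10.43 without, limma adjusted p = 0.11), lower in 6 of 6 replicate numbers and not called. It was called when only the brighter transcripts were tested (limma adjusted p = 0.0748) and in 8 of the 47 fits without 1 array (0.0451 at the lowest). With the array slope as a covariate it was -0.16 (limma adjusted p = 0.48), and without Organic-UVR replicate 1 it was -0.25 (0.172). Its neighbour Serpinf1, which encodes the angiogenesis inhibitor PEDF, had a pooled difference of -0.06.

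F5 encodes coagulation factor V, the cofactor with which activated factor X cleaves prothrombin, and F13b encodes the carrier subunit of factor XIII, which crosslinks fibrin. F5 had lowest, median and highest values of 10.36, 10.51 and 10.67 in Control + UVR, against 10.45, 10.76 and 10.86 in Control-UVR. The difference was -0.20 (95% interval -0.39 to -0.01, limma adjusted p = 0.351). F13b had 10.14, 10.43 and 10.84 in Control + UVR, against 10.52, 10.63 and 10.95 in Control-UVR, with a difference of -0.24 (limma adjusted p = 0.415). Both genes overlapped between those groups. In Control + UVR, 7 of the 8 coagulation members lay below Control-UVR with a median of -0.13, and in transcripts with a mean above 8 the median was -0.12 with 75.4% below 0.

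Pros1 encodes protein S, an anticoagulant cofactor. Its lowest, median and highest values were 6.92, 8.40 and 8.71 in Organic-UVR, 7.63, 8.02 and 8.51 in Control + UVR, and 8.12, 8.30 and 8.50 in Control-UVR. The value of 6.92 was Organic-UVR replicate 1, and the other 5 mice of that group were at 8.30 or above. Serpinc1 (antithrombin), Kng1 (kininogen) and Hrg (histidine-rich glycoprotein) stayed within 0.08 of Control-UVR in every group. Serpina10, which encodes the inhibitor of factor Xa that works with protein Z, ranged in its differences from -0.24 in Organic + UVR to -0.09 in TiO2-UVR and passed no test.

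Besides Mbl1, the 6 other complement genes were not called. C4bp, a brake on the classical pathway, was on average below Control-UVR in all 7 groups, by 0.04 to 0.19. Its medians in Organic-UVR (11.08) and TiO2 + UVR (11.08) were above that of Control-UVR (11.06), and those of the other groups below it. Organic-UVR replicate 1 (9.71) and Control-UVR replicate 2 (11.34) stood apart from their groups for this gene. C6, C7 and C9, which build the membrane pore, had differences between -0.17 and 0.18. Vtn and Clu, which encode vitronectin and clusterin and keep that pore from inserting into host cells, had differences of -0.16 in Organic-UVR and between -0.14 and 0.06 elsewhere.

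None of the 5 acute phase genes was called. Apcs encodes serum amyloid P. Its lowest, median and highest values were 9.33, 10.87 and 12.25 in Organic-UVR, 10.71, 11.14 and 11.65 in Organic + UVR, 10.51, 11.07 and 12.12 in TiO2 + UVR, and 11.07, 11.31 and 11.79 in Control-UVR. Organic-UVR held both the lowest and the highest mouse of all 47, and the groups overlap. The difference from Control-UVR in Organic-UVR was -0.49 (95% interval -1.01 to 0.03, limma adjusted p = 0.289). Crp, the neighbouring pentraxin gene, had differences between -0.05 and 0.07. Serpina3n, a serpin that inhibits leukocyte proteases, had differences between -0.08 and 0.11, and Itih4 between -0.13 and 0.02.

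Levels of the acute phase genes were also compared with each other from mouse to mouse. Group means were removed and 10 pairs were tested over 47 mice with 100000 permutations (two-sided, Benjamini-Hochberg over the 10 pairs). The 2 farthest mice of a pair were those farthest from the median of the gene named first. Itih3 and Itih4 had a Pearson r of 0.87 and a Spearman rho of 0.82 (permutation p = 1e-05 each, the smallest these permutations can give, adjusted 2e-05 and 3.3e-05), and r was 0.79 without the 2 farthest mice. Apcs and Crp had r 0.75 and rho 0.62 (permutation p = 1e-05 each, adjusted 2e-05 and 3.3e-05), with r 0.58 without the 2 farthest. These pairs kept r of 0.83 and 0.64 without Organic-UVR replicate 1. Itih4 and Serpina3n had r 0.83 and rho 0.66 (permutation p = 1e-05 each, adjusted 2e-05 and 3.3e-05), with 0.67 without the 2 farthest.

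Itih3 and Serpina3n had r 0.69 (permutation p = 1e-05, adjusted 2e-05) and rho 0.43 (permutation p = 0.0032, adjusted 0.0063), with r 0.44 without the 2 farthest. Apcs and Itih3 had r 0.74 (permutation p = 1e-05, adjusted 2e-05) and rho 0.60 (permutation p = 4e-05, adjusted 0.0001), with 0.57 without the 2 farthest. The other 5 pairs had lower r once the 2 farthest mice were left out. Apcs and Serpina3n had r 0.44 (permutation p = 0.0036, adjusted 0.0036) and rho 0.10 (permutation p = 0.49, adjusted 0.49), and r was -0.03 without the 2 farthest mice. Crp and Itih4 had r 0.50 (permutation p = 0.001, adjusted 0.0011) and rho 0.19 (permutation p = 0.21, adjusted 0.23), with r 0.11 without the 2 farthest. Apcs with Itih4, Crp with Itih3 and Crp with Serpina3n had r of 0.54, 0.55 and 0.59 (permutation p = 0.00018, 0.00017 and 5e-05, adjusted 0.00022, 0.00022 and 8.3e-05) and rho of 0.32, 0.30 and 0.32 (permutation p = 0.027, 0.041 and 0.028, adjusted 0.039, 0.051 and 0.039). Their r was 0.20, 0.25 and 0.23 without the 2 farthest mice, and 0.32, 0.38 and 0.33 without Organic-UVR replicate 1 (adjusted permutation p = 0.038, 0.016 and 0.034). With replicate number means removed as well as group means, the 5 weaker pairs had r of 0.45 to 0.58 (adjusted permutation p of 0.0017 or less), and the 5 stronger ones 0.67 to 0.89. Correlations among other bright genes were not computed. The mice share batch and array slope, whose part in these correlations was not tested beyond removing the replicate number means.

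**Figure D4:**
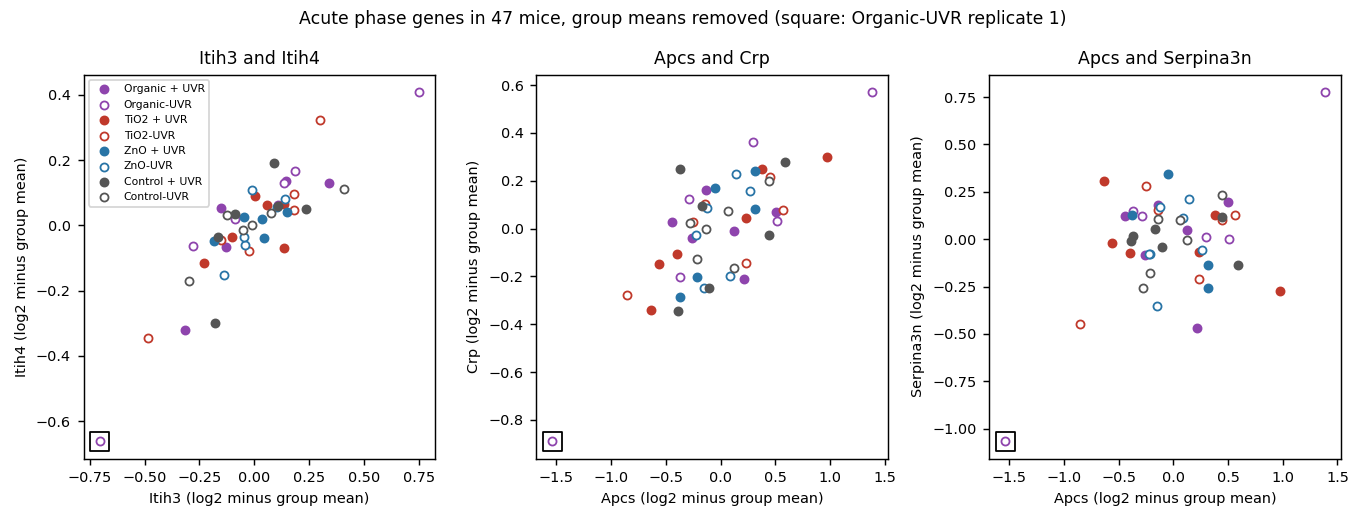
Log2 level minus the group mean in each of 47 mice for Itih3 and Itih4 (r 0.87), Apcs and Crp (r 0.75) and Apcs and Serpina3n (r 0.44); colours mark the sunscreen, filled points UVR, and the square Organic-UVR replicate 1. The third relation has r -0.03 without the 2 farthest mice.

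Of the serpins apart from Serpina6, Serpina12 had lowest, median and highest values of 3.26, 3.95 and 4.74 in Organic-UVR, 4.00, 4.45 and 5.02 in Control + UVR, and 3.82, 4.15 and 4.64 in Control-UVR. The 5 mice of ZnO + UVR had 4.29, 4.31, 4.71, 4.54 and 4.76. Its UVR difference pooled over all sunscreens was 0.20 (95% interval -0.01 to 0.41, limma adjusted p = 0.734) and no member was called in that contrast, where 0.0% of all transcripts were called and 6.8% were under an unadjusted p of 0.05, with none of the members among them. Serpinf1 differed from Control-UVR by -0.10 to 0.06.

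The 4 apolipoprotein genes had the lowest median spread among mice of the 6 classes. Apoa2 and Apob encode structural proteins of high density and of low density lipoproteins, Apof a minor lipoprotein component, and Apoh a phospholipid-binding glycoprotein. Their differences from Control-UVR lay between -0.11 and 0.09, and in the pooled contrast all 4 were between -0.05 and 0.00. Among the 5 carrier and matrix genes, Ahsg and Fetub (fetuins, which keep calcium phosphate from precipitating or inhibit proteases) had differences between -0.04 and 0.12, Fn1 (plasma fibronectin) between -0.19 and 0.01, and Shbg between -0.05 and 0.15.

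The residual SD among mice, after group and replicate number, had a median of 0.245 over the members and 0.25 over all transcripts. It was lowest for Serpinc1 at 0.0998, Apoa2 at 0.101, Apob at 0.111, Kng1 at 0.118 and Apof at 0.119, all within the lowest 0.265% of transcripts. It was highest for Apcs at 0.482 (97.1 percentile), followed by Serpina12 at 0.377, Serpinf2 at 0.373, Pros1 at 0.366 and Mbl1 at 0.346. By class the median was 0.115 for apolipoproteins, 0.187 for coagulation, 0.194 for serpins, 0.25 for carriers and matrix, 0.27 for acute phase and 0.296 for complement. Bright probesets near the top of the scale have a compressed range, whose part in the low spread was not tested.

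**Figure D5:**
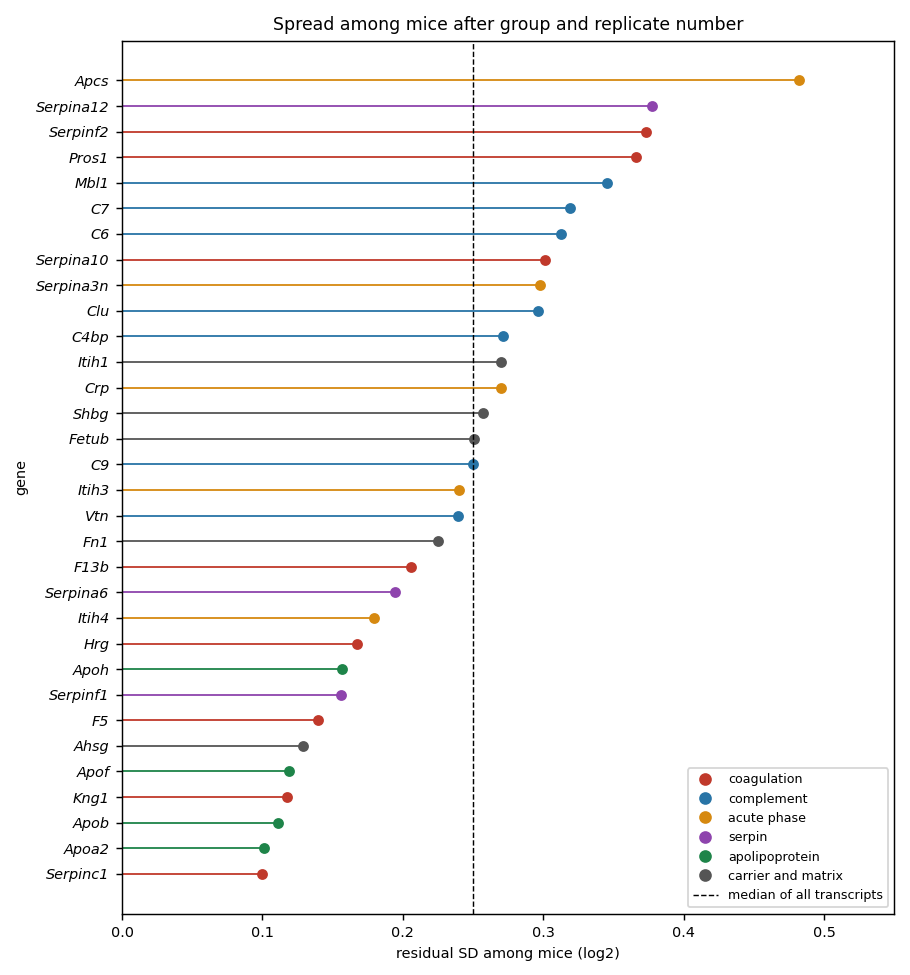
Residual SD among mice on the log2 scale (x axis) of each gene (y axis), coloured by class, with the median of all transcripts as a dashed line (0.25). Serpinc1 (0.0998), Apoa2 (0.101) and Apob (0.111) sit at the bottom and Apcs (0.482) at the top.

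Other genes of the same systems were read through wider lists. Of 37 further coagulation genes 7 were measured, of 39 complement genes 7, of 34 acute phase genes 2, of 22 serpins of clade A and related genes 10, of 35 apolipoprotein and lipid transfer genes 7, of 28 carriers 9, and of 34 regulators 17. Of the genes measured, no further coagulation, serpin or apolipoprotein gene was called in any comparison. The other genes of these lists had no probeset with a single symbol in the table and were not tested. The complement gene Colec11, a soluble collectin of the lectin pathway, was lower in Organic-UVR (-0.36, limma adjusted p = 0.0775). Leap2, a liver-made peptide that opposes ghrelin and stood in the acute phase list, was lower in TiO2 + UVR (-1.03, limma adjusted p = 0.0522), in Organic-UVR (-0.83, 0.0805) and in the pooled contrast (-0.65, 0.00296).

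Among carriers, the matrix and plasma protein gene Fbln1 was higher in Organic + UVR (0.40, limma adjusted p = 0.0792), in Organic-UVR (0.39, 0.0625) and in the pooled contrast (0.20, 0.0516). Igfbp1, a binding protein of insulin-like growth factors, was called in the F test (limma adjusted p = 0.0473). Of the regulators, Stat5b, which carries the growth hormone signal to liver genes, was the single gene called. It was lower in Organic + UVR (-0.58, limma adjusted p = 0.0366), Organic-UVR (-0.50, 0.0443), TiO2 + UVR (-0.63, 0.0127) and the pooled contrast (-0.42, 0.000153). In the pooled contrast 1 of 17 regulators, 1 of 9 carriers and 1 of 2 acute phase list genes were called, and none of the other lists. Of all transcripts, 4.94% were called there. The calls of list and marker genes are given for 1 fit only, without the alternative fits.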

How the data were processed

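Total RNA from liver was hybridised to Affymetrix Mouse Gene 1.0 ST arrays, and the authors deposited log2 values normalized by robust multi-array average (RMA). The study processed chips in batches of 1 chip per group and corrected for batch, and it was not settled here if that correction is already in the deposited table. The table held 16383 probesets, of which 6568 were control probesets, and the other 9815 were tested. The study reports more transcripts for this array, so the table holds a part of them. The 32 measured members lay on chromosomes 1, 10, 11, 12, 14, 15 and 16. Genes outside the table were not tested, and shares of all transcripts and the adjustment cover only those in it. A single symbol was known for 7450 transcripts, several for 511 and none for 1854, and 7421 matched RefSeq (GRCm38.p6) by Entrez number. The number of arrays limits the precision. The labels name replicates as biological; p-values measure the spread between these mice.

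limma 3.58.1 in R 4.3.3 fitted all 47 arrays with group and replicate number (34 residual degrees of freedom), lmFit, contrasts.fit and eBayes, and Benjamini-Hochberg adjustment over all transcripts, called under 0.1. The replicate number stood for the batch, which the labels do not state. Scripts were tested on simulated data. Correlations used SciPy 1.17.1 in Python 3.11.15. Alternatives were no replicate block, quantile normalization, transcripts brighter than the median, array weights, the array slope as a covariate, a threshold of 0.05, the compared groups alone and leaving out each array. Members and lists were chosen with earlier results of these data known. Values per mouse are given for members called in any comparison, then those with the smallest F p up to 8, and the 5 with the largest residual SD; others were named after their values were seen. Promoter motifs were chosen after the calls were known.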

Additional observations from a re-analysis of the deposited data

Results flagged for a closer look

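Among 256 sets of values (32 members in 8 groups), 26 had a highest or lowest mouse whose gap to the nearest other mouse was large for the range of its group by Dixon's 95% limit, where chance gives about 1 in 20, or 12.8. Of these, 12 belong to Organic-UVR replicate 1. That mouse was lowest of its group for Serpinc1 (12.04), Hrg (11.35), Kng1 (12.23), Pros1 (6.92), C4bp (9.71), Serpinf1 (10.45), Apob (11.90), Ahsg (12.37), Fetub (10.07), Fn1 (11.14) and Itih1 (9.66), and highest for the dim gene Shbg (5.04), on the log2 scale. TiO2-UVR replicate 1 was lowest of its group for Kng1 (12.42), Serpinf1 (10.96) and Ahsg (12.63). The array slope of Organic-UVR replicate 1 was 0.77, and its part in these values was not tested.

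The other values were spread over 8 mice. Organic + UVR replicate 4 was lowest for F5 (10.35) and Fn1 (11.29), TiO2 + UVR replicate 4 for Serpinf1 (10.78), and TiO2 + UVR replicate 1 for Apof (11.91). ZnO-UVR replicate 4 was highest for Serpina12 (4.97) and lowest for Apof (11.81), and ZnO-UVR replicate 1 was highest for Shbg (4.51). Control + UVR replicate 1 was lowest for Vtn (11.49) and Fn1 (11.39). Control-UVR replicate 2 was highest for C4bp (11.34), and Control-UVR replicate 6 was lowest for Shbg (3.99).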

How the results depend on the processing

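The count of members called in the pooled contrast of organic filters was 2, and it was 0 without the replicate block and with the array slope as a covariate, 1 with array weights and at a threshold of 0.05, 3 with transcripts brighter than the median (Serpinf2 added), and 1 to 3 when each array was left out. In the F test the count was 1, with 0 at a threshold of 0.05, 2 with quantile normalization, with transcripts brighter than the median, with array weights and with the array slope, and 0 to 2 without each array. Against Control-UVR, Organic-UVR had 1 call with the brighter transcripts and with array weights, Organic + UVR 1 with array weights and TiO2 + UVR 1 with array weights, in place of 0. Each of these calls was Mbl1. Leaving out each array gave 0 to 1 for Organic + UVR and for Organic-UVR, and 0 to 0 for TiO2 + UVR, TiO2-UVR, ZnO + UVR, ZnO-UVR, Control + UVR, UVR over all sunscreens and the interactions of ZnO and organic sunscreen. The interaction of TiO2 sunscreen and UVR had 1 call with the brighter transcripts, array weights and the array slope, and 0 to 1 without each array.

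Without Organic-UVR replicate 1, r fell to 0.17 for Apcs and Serpina3n (adjusted permutation p = 0.27) and to 0.20 for Crp and Itih4 (0.19). The other 8 pairs ranged from 0.32 to 0.83. The replicate numbers did not pair all samples: the deviations of same-numbered arrays correlated with a median r of 0.145 (-0.508 to 0.746), against -0.0318 for arrays of different number and group. The block was kept because the study's methods removed batch effects. No direction of a called value was turned. The number of arrays limits what can be told apart, and the cause of the changed counts was not tested. Without the replicate block, transcripts called over the whole table numbered 217 in place of 485 in the pooled contrast, 33 in place of 162 for Organic + UVR, 92 in place of 321 for Organic-UVR, 30 in place of 68 for TiO2 + UVR, 102 in place of 189 in the F test and 7 in place of 17 for the TiO2 interaction. With array weights the pooled count was 795 and with the array slope 216.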
